A study of Mus musculus with 8 samples.

Results

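The 9 genes described here, Plagl1, Grb10, Slc38a4, Sfmbt2, Impact, Zrsr1, Zdbf2, Gnas and Peg13, are imprinted genes of the mouse, several of which act in the placenta or set the growth of the embryo. They were chosen by name, though with earlier results of these data known, from a table of 23284 genes. All 9 were read in each of the 8 RNA-seq libraries. The libraries were made from induced pluripotent stem cells (iPSCs), which are fibroblasts of mouse embryos reprogrammed to an early embryonic state, and the cells were cultured on feeder cells. The first line carried ColA1_miR203 (KI/KI) and Rosa26rtTA (KI/KI), so that doxycycline (dox) switches on miR-203, a microRNA. In this knock-in line, the dox libraries are of clones 1 and 2 that received dox over 5 days and then spent 2 weeks without it, and the vehicle libraries came from clones 1 and 2 of the same genotype (n = 2 per group). The second line was wild type, ColA1_miR203 (+/+) and Rosa26rtTA (+/+), and received siRNA against Dnmt3a, siRNA against Dnmt3b, both siRNAs (called the double siRNA here) or a control siRNA (siControl). Its cells were collected 1 week after transfection, with 1 library per siRNA group and thus no replicate check. The free-text description of the vehicle libraries also speaks of dox, and their group was taken from the treatment label, which reads vehicle.

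Imprinted genes are transcribed mainly from the chromosome inherited from one parent. In most of them the silent or active state is set by DNA methylation laid down in the egg or sperm by DNMT3A with DNMT3L, and is kept in the early embryo by ZFP57, TRIM28 and DNMT1. At a smaller group, to which Slc38a4 and Sfmbt2 belong, the maternal copy is silenced in the early embryo through the histone mark H3K27me3. In mouse, Grb10 is expressed mainly from the maternal copy outside neurons, Gnas from either copy depending on promoter and tissue, and the other 7 from the paternal copy. RNA was measured here without regard to the parental copy, so the values say nothing of allelic usage.

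Expression is given in FPKM, a unit that divides the fragments of a gene by its length and by the size of the library, so that levels of different genes can be set side by side. In each library, 11620 to 12076 genes reached 1 FPKM. The pluripotency factor gene Pou5f1 lay between 855 and 1048 FPKM in the knock-in line and between 888 and 1223 in the wild-type line, and Nanog between 209 and 283 against 69.3 and 77.6. Of 15 trophoblast markers, 7 were under 1 FPKM in every library, and Prl3d1, a marker of giant cells of the placenta, was listed at 0. Summed markers of feeder fibroblasts came to 2972 and 3098 FPKM with dox, 983 and 1157 with vehicle, 486, 479 and 486 with siDnmt3a, siDnmt3b and the double siRNA, and 610.1 with siControl. In such bulk RNA, fewer cells of a type and less RNA per cell cannot be told apart. The target Dnmt3a stood at 59.8 FPKM under siDnmt3a, at 69.5 under the double siRNA, at 77.6 under siDnmt3b and at 75.1 under siControl. The target Dnmt3b stood at 128 under siDnmt3b, at 135 under the double siRNA and at 146 under siControl. Under siDnmt3a, which does not target it, Dnmt3b was also at 135. The labels do not say that dox and vehicle libraries came from separate cultures, so the p-values speak only of how much these particular libraries vary.

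The 9 genes spanned more than 100-fold in level. Gnas was the most abundant in all 8 libraries, at 188 to 275 FPKM. Impact came next in the knock-in libraries, at 35.4 to 57.6 FPKM, and Grb10 came next in the wild-type libraries, at 84.2 to 94.8. Zdbf2 lay between 7.28 and 15.4 FPKM over all 8 libraries. Plagl1, Zrsr1, Sfmbt2 and Peg13 stayed under 6 FPKM everywhere, with Sfmbt2 last in all 4 wild-type libraries and Peg13 last in both vehicle libraries and dox clone 2. In dox clone 1 the lowest pair changed places, Peg13 being at 1.87 FPKM and Sfmbt2 at 1.58. In the wild-type line Plagl1, Zrsr1 and Peg13 lay between 1.78 and 2.29 FPKM, and their order changed from library to library. Impact and Slc38a4 were also close to each other there, at 38.2 to 44.5 and 37.9 to 41.4 FPKM, and followed Grb10 in either order.

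**Figure D1:**
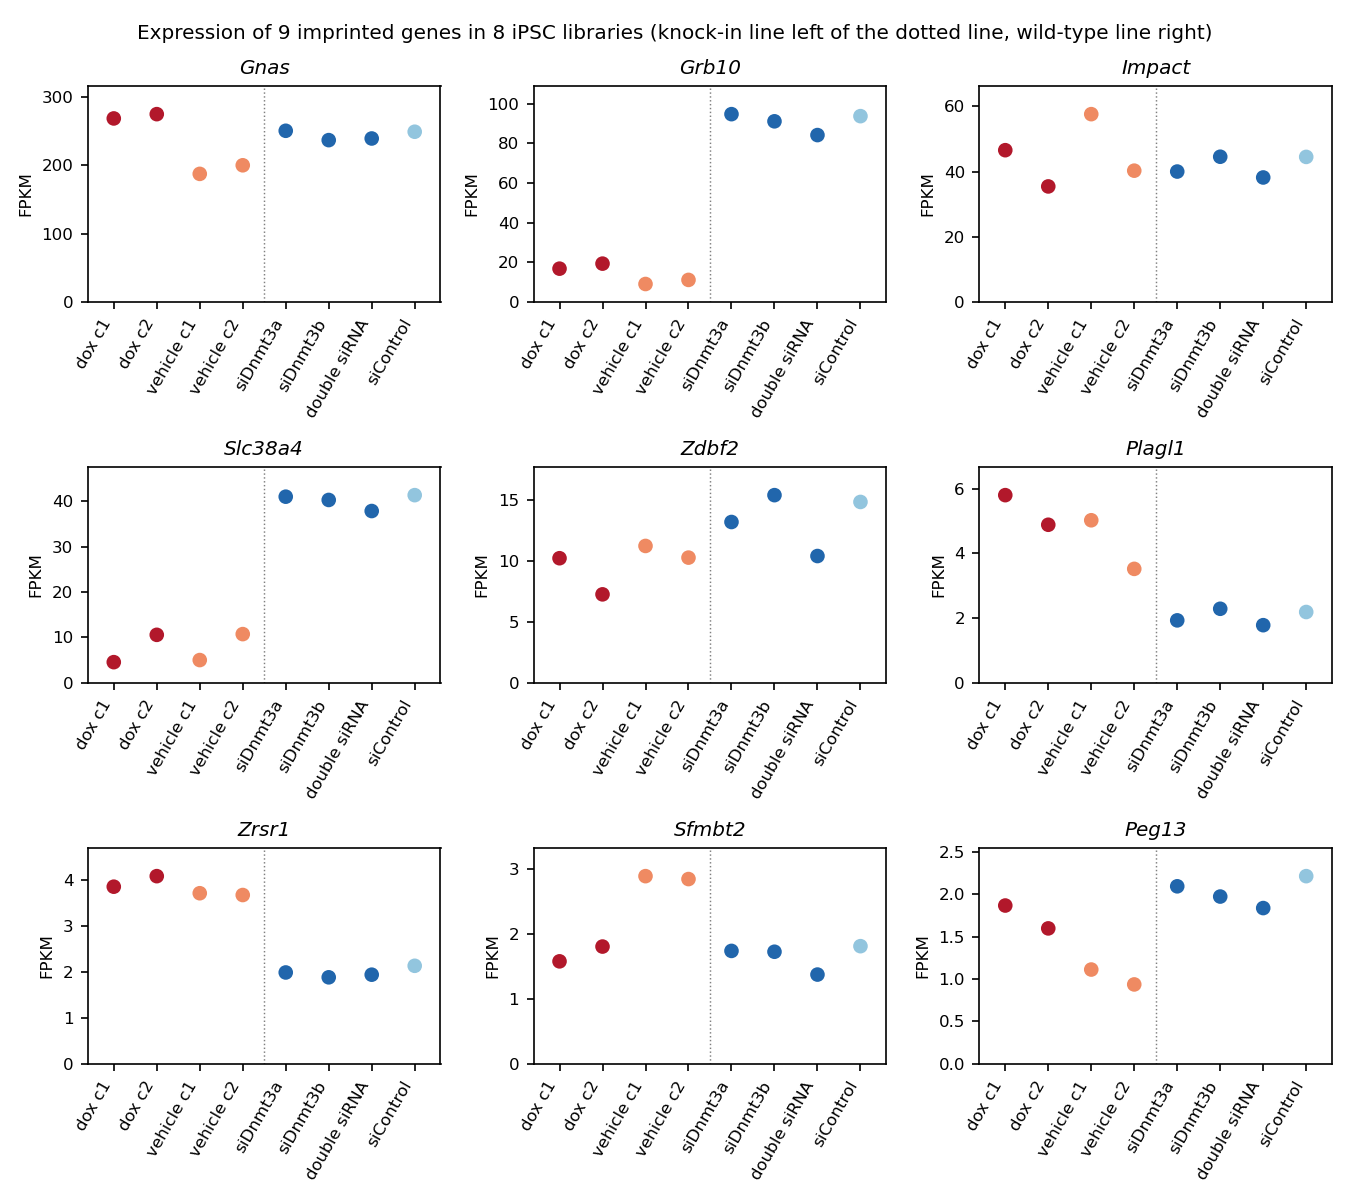
FPKM of the 9 genes (linear y axes from 0, each with its own range) in each of the 8 libraries, 1 point per library (c1 and c2, clones 1 and 2). Grb10 and Slc38a4 are low in the 4 knock-in libraries and high in the 4 wild-type libraries, and Gnas is highest of the 9 in every library.

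Grb10 encodes an adaptor protein that binds the insulin and IGF1 receptors and restrains growth, and Slc38a4 encodes a transporter of neutral amino acids that is abundant in placenta and liver. These 2 genes separated the lines most. Grb10 was at 16.7 and 19.3 FPKM with dox, 8.98 and 11.05 with vehicle, 94.8, 91.1 and 84.2 with siDnmt3a, siDnmt3b and the double siRNA, and 93.8 with siControl. The lowest wild-type library was 4.37 times as high as the highest knock-in library, and the medians differed by 6.65-fold, a ratio reached by 1.49% of the 12042 genes with a mean of 1 FPKM or more over the 8 libraries. Slc38a4 was at 4.55 and 10.6 FPKM with dox, 5.01 and 10.7 with vehicle, 41.0, 40.3 and 37.9 with the same 3 siRNA treatments, and 41.4 with siControl. Its medians differed by 5.22-fold, which 1.97% of genes reached, and again no libraries overlapped. On GRCm38, Grb10 lies on chromosome 11 from 11930508 to 12038683 (minus strand) and Slc38a4 on chromosome 15 from 96994820 to 97055956 (minus strand), both protein-coding. The 250 bases upstream of an annotated RefSeq start of each (GRCm38.p6) are shown because the genes were low in the same libraries, with CpG dinucleotides in capitals.
Grb10, chr11:12037421-12037670, minus strand: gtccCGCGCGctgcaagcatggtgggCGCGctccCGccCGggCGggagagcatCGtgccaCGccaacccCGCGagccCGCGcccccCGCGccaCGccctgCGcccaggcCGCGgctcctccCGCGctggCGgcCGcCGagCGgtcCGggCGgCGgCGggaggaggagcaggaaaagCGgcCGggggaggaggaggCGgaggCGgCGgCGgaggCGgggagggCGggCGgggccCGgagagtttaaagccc
Slc38a4, chr15:97055957-97056206, minus strand: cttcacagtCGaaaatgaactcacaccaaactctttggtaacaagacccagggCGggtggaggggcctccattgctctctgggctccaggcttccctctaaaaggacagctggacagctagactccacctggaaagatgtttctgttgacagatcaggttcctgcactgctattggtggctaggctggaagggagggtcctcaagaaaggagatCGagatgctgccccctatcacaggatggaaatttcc
The Grb10 window holds 40 CpGs, more than 98.7% of 32851 such windows over all genes, and the Slc38a4 window holds 3, more than 29.0% of them, against a median of 6. They are the Grb10 window with the most CpGs and the Slc38a4 window with the fewest. The other Grb10 window holds 8 CpGs (more than 57.0% of windows), and the other Slc38a4 windows hold 5 each (more than 44.4%).

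Plagl1, which encodes a zinc finger transcription factor that controls other imprinted genes, and Zrsr1, which encodes a relative of the U2AF1 splicing factor, were higher in the knock-in line. Plagl1 was at 5.80 and 4.88 FPKM with dox, 5.02 and 3.52 with vehicle, and between 1.78 and 2.29 in the wild-type line, a ratio of medians of 2.41. Zrsr1 was at 3.85 and 4.07 FPKM with dox, 3.70 and 3.66 with vehicle, and between 1.88 and 2.13 in the wild-type line, a ratio of 1.93. Thus 2 of the 9 genes lay above and 2 below the wild-type line without overlap, against 30.5% and 30.2% of all genes (60.7% in either direction), and the libraries of the other 5 genes overlapped between the lines. A gap as wide as 2-fold between the nearest libraries, below the wild-type line, was found at 4.31% of genes, Grb10 and Slc38a4 among them. No test was made, since the lines also differ in treatment and experiment, and line, treatment and experiment cannot be told apart.

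Other imprinted genes differed between the lines in both directions. Of 37 with a mean of 1 FPKM or more, 9 lay above and 15 below the wild-type line without overlap, and 13 overlapped. Over all genes, 30.5% lay above and 30.2% below, which is 60.7% in either direction. A gap of 2-fold or more between the nearest libraries was found at 8 of the 37 below the wild-type line, against 4.31% of all genes. Above the wild-type line it was found at 5 of the 37. Peg10, Nnat, Xist and Dcn are named as other imprinted genes with the largest dox differences, and Cdkn1c as a gene read beside Plagl1. H19 and Igf2, also with large dox differences, overlapped between the lines. H19 lay between 4.04 and 55.5 FPKM in the knock-in line and between 7.18 and 17.7 in the wild-type line. Igf2 lay between 7.93 and 33.8 FPKM against 7.35 and 11.8. Peg10, a gene derived from a retrotransposon that the placenta needs, lay between 2.54 and 10.2 FPKM in the knock-in line and between 56.0 and 75.5 in the wild-type line. Nnat, which encodes a small membrane protein of neurons, lay between 1.93 and 5.77 FPKM against 82.2 and 90.0, and Cdkn1c, a cell cycle inhibitor gene, between 1.03 and 2.21 against 38.2 and 52.6. The opposite held for Xist, the RNA that silences an X chromosome, at 2.35 to 5.90 FPKM in the knock-in line against 0.362 to 0.599 in the wild-type line. Dcn, which is also a fibroblast marker, lay between 16.5 and 151.6 FPKM in the knock-in line against 3.13 and 8.27. The methyltransferase gene Dnmt3a lay between 7.55 and 9.55 FPKM in the knock-in line and between 59.8 and 77.6 in the wild-type line, including its siRNA library. Zfp57, whose protein binds methylated imprints, lay between 195 and 242 FPKM in the knock-in line and between 71.1 and 78.3 in the wild-type line. The part of these differences in those of Grb10 and Slc38a4 was not tested.

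Dox was compared with vehicle in the knock-in line by limma on log2(FPKM + 1), with p-values adjusted over the 11927 genes that had a mean of 1 FPKM or more, and a threshold of 0.05. Grb10, Gnas and Peg13 rose, Sfmbt2 fell, and Plagl1, Zrsr1, Slc38a4, Impact and Zdbf2 did not pass. These 4 calls among 9 genes stand beside 31.9% of all genes tested (17.1% rose and 14.8% fell), so the count is near the background. The dox and vehicle libraries did not overlap at 6 of the 9 genes, against 72.2% of all genes. The clones differed in the same direction in both groups over many genes, and with the clone as a block 7 of the 9 genes passed, beside 52.3% of all genes. Plagl1 (limma adjusted p = 0.0351), Impact and Zdbf2 were the 3 added. Without vehicle clone 1, 2 of the 9 passed.

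**Figure D2:**
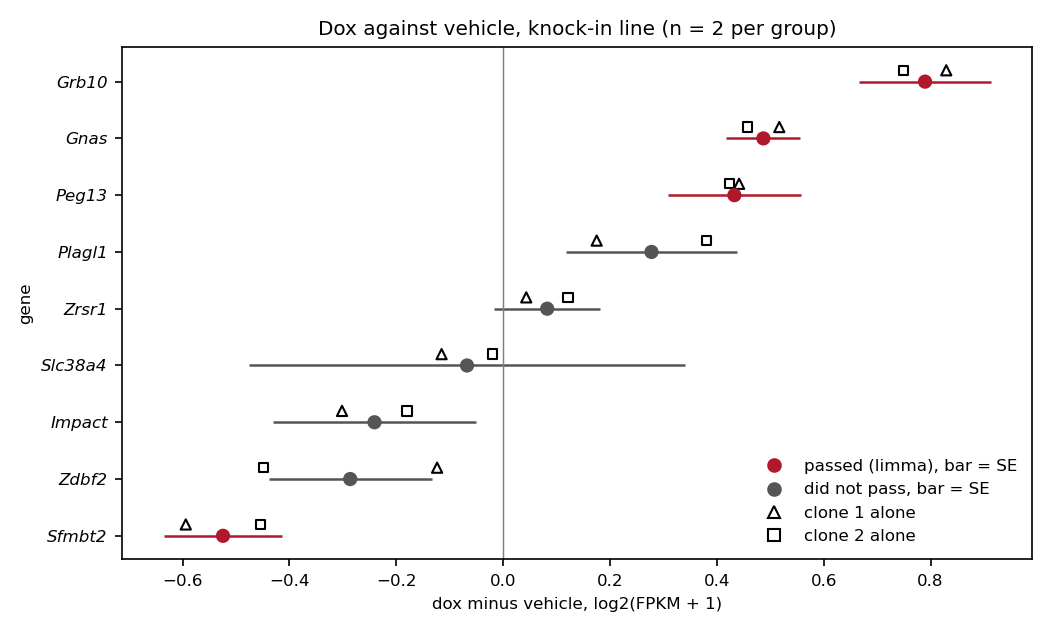
Difference between dox and vehicle on the log2(FPKM + 1) scale (x axis) for each of the 9 genes (rows), as the mean with its standard error from limma (circles and bars, n = 2 per group) and within clone 1 and clone 2 alone (triangles and squares). Grb10, Gnas and Peg13 lie to the right of 0, Sfmbt2 lies to the left, and the bar of Slc38a4 is the widest.

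Among the growth regulators, Grb10 had the largest difference of the 9. Its SD was 1.80 FPKM with dox and 1.47 with vehicle (n = 2 each), its mean FPKM was 1.80-fold higher with dox, and it rose by 0.79 in log2 units (SE 0.123, limma adjusted p = 0.00608). Both dox libraries were above both vehicle libraries, and all 4 were far below the wild-type line. Plagl1 averaged 5.34 ± 0.647 FPKM with dox and 4.27 ± 1.06 with vehicle, and its groups overlapped (log2 difference 0.28, SE 0.159, limma adjusted p = 0.218). Within each clone, Plagl1 was higher with dox, by 0.17 in clone 1 and 0.38 in clone 2 on the log2 scale.

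Genes around Grb10 in insulin and IGF signalling were read from the same fit. Of 25 tested, 5 rose, none fell and 20 did not pass, with a median of 0.06 on the log2 scale beside -0.01 for all genes. Among all genes tested 31.9% passed (17.1% rose and 14.8% fell), a larger share than in this list. Grb14, which encodes an adaptor of the same family, was at 7.04 and 8.24 FPKM with dox and at 1.43 and 1.503 with vehicle, and rose by 1.81 (limma adjusted p = 0.000289). The receptor genes Igf2r, whose product clears IGF2, and Igf1r rose by 0.87 and 0.58 (limma adjusted p = 0.000887 and 0.00866). Grb7, the third family member, was at 10.98 and 11.05 FPKM with dox and 10.8 and 10.7 with vehicle, a difference of 0.03 (limma adjusted p = 0.810). Cobl, a neighbour of Grb10 that encodes an actin nucleator, rose by 0.44 (limma adjusted p = 0.0139). Cobl stood at 38.5 to 57.6 FPKM in the knock-in line against 9.82 to 11.5 in the wild-type line, the opposite of Grb10. Ddc, another neighbour, was lower in the knock-in line as Grb10 was, at 3.13 to 4.08 FPKM against 6.14 to 7.35. With dox it differed by -0.02 (limma adjusted p = 0.925). Of 8 tested genes of the PLAG family and the PLAGL1 network, 4 rose, 1 fell and 3 did not pass, beside the same background. This network holds imprinted genes and others, such as Cdkn1a, which rose by 0.45 on the log2 scale (limma adjusted p = 0.0166). The 1 gene that fell was the imprinted Cdkn1c, by 0.47 (limma adjusted p = 0.0418). H19, an imprinted non-coding RNA of that network, was at 54.1 and 55.5 FPKM with dox against 4.04 and 6.89 with vehicle.

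Gnas encodes the stimulatory G protein subunit Gs alpha, which couples hormone receptors to adenylyl cyclase, together with other products from alternative promoters. It lies on chromosome 2 from 174284320 to 174346744 (plus strand, GRCm38). Gnas was at 269 and 275 FPKM with dox and 188 and 200.2 with vehicle, without overlap, and the dox libraries were also above the wild-type line at 237 to 251. The group means were 272 ± 4.47 FPKM with dox and 194 ± 8.88 with vehicle (SD, n = 2 each), and the gene rose by 0.49 (log2, SE 0.0692, limma adjusted p = 0.00447). The antisense transcript Nespas, which overlaps Gnas exons on the other strand, was at 0.939 and 0.720 FPKM with dox and 1.99 and 1.31 with vehicle, and fell by 0.53 (limma adjusted p = 0.0488). Which strand was counted is not stated in the labels, so the values of Gnas and Nespas may share fragments, though Nespas is far lower. Values count all Gnas promoters together.

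Of 26 tested genes of Gs and cAMP signalling, 8 rose, 3 fell and 15 did not pass (median 0.19 on the log2 scale). Among all genes tested, 17.1% rose and 14.8% fell. The adenylyl cyclase genes Adcy6 and Adcy3, whose products make cAMP, rose by 0.87 and 0.51 (limma adjusted p = 0.00344 and 0.0139). Adcy6 was at 3.93 and 4.02 FPKM with dox and at 1.57 and 1.90 with vehicle. Creb1, which encodes a transcription factor activated by this pathway, fell by 0.46 on the log2 scale (limma adjusted p = 0.0165) and was at 4.28 and 4.03 FPKM with dox and at 6.32 and 5.90 with vehicle.

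Impact encodes an inhibitor of GCN2, the kinase that slows translation when amino acids are scarce, and lies on chromosome 18 from 12955852 to 12992950 (plus strand, GRCm38). Impact was at 46.6 and 35.4 FPKM with dox, 57.6 and 40.3 with vehicle, and 38.2 to 44.5 in the wild-type line. The groups overlapped, since clone 1 was the higher of its group both with dox and with vehicle (log2 difference -0.24, SE 0.190, limma adjusted p = 0.360). Within clones the difference was -0.30 in clone 1 and -0.18 in clone 2, and with the clone as a block the limma adjusted p was 0.00981. Without vehicle clone 1 the difference was 0.01. Of 24 tested genes of GCN2 and the amino acid response, 5 rose, 3 fell and 16 did not pass, near the 31.9% of all genes that passed. Ddit3, a stress-induced transcription factor gene, rose by 1.05 (limma adjusted p = 0.00123), and Asns, which encodes asparagine synthetase, by 0.50 (limma adjusted p = 0.0175). Eif2ak4, which encodes GCN2 itself, was at 8.28 and 8.79 FPKM with dox and 8.57 and 9.39 with vehicle, a difference of -0.06 (limma adjusted p = 0.618).

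Slc38a4 did not pass between dox and vehicle but differed between clones. Clone 2 was 2.32 times as high as clone 1 with dox (10.6 against 4.55 FPKM) and 2.14 times as high with vehicle (10.7 against 5.01 FPKM). Its dox and vehicle means were 7.56 ± 4.26 and 7.87 ± 4.04 FPKM (SD, n = 2 each; log2 difference -0.07, SE 0.408, limma adjusted p = 0.910), and within clones the difference was -0.12 and -0.02. Of the 11927 genes tested, 9 (0.0755%) differed between the clones at least as much in both groups and in the same direction. Of these 9 genes, 4 were higher in clone 2 and 5 were higher in clone 1. Apart from Slc38a4, those higher in clone 2 included Cdh3, which encodes P-cadherin. Cdh3 was at 17.4 FPKM in clone 2 and 4.02 in clone 1 with dox and at 62.3 and 11.1 with vehicle. Also higher in clone 2 was the row of Mir203, the miR-203 precursor gene. Mir203 was listed at 15.3 FPKM in clone 2 and at 0 in clone 1 with dox, at 17.7 and 0 with vehicle, and at 0 in all wild-type libraries. Among those higher in clone 1 was Lefty1, at 10.0 FPKM in clone 2 and 31.8 in clone 1 with dox and at 2.73 and 6.77 with vehicle. Libraries of polyadenylated RNA do not measure the mature microRNA. Cdh3, Mir203 and Lefty1 were named for their clone differences after their values were seen, and whether the clones differ in the knock-in itself was not tested. Each clone number stands for 1 clone, and the labels do not state that equal numbers in the dox and vehicle groups are the same clone.

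**Figure D3:**
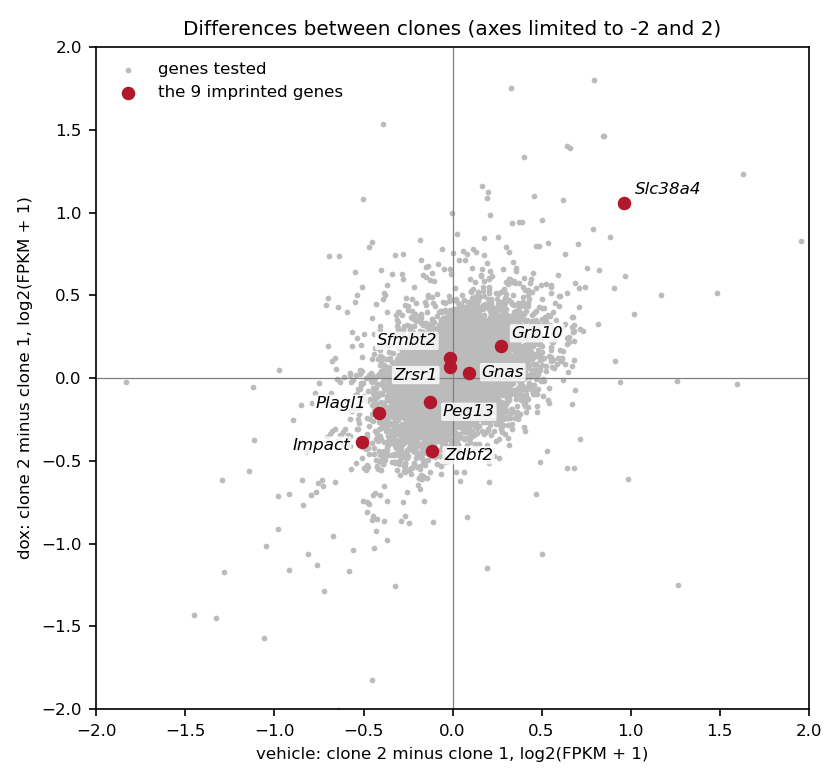
Difference between clone 2 and clone 1 on the log2(FPKM + 1) scale with dox (y axis) and with vehicle (x axis) for all genes tested (grey) and the 9 imprinted genes (red), with 5 genes beyond the axes. Slc38a4 lies at 1.06 with dox and 0.96 with vehicle, while the other 8 genes lie within the cloud.

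Relatives of Slc38a4 were read beside it. Slc38a1, of the same gene cluster, was at 27.05 and 26.02 FPKM in dox clones 1 and 2 and at 26.3 and 28.3 in vehicle clones 1 and 2, and at 33.5 to 37.0 in the wild-type line. Slc38a2, which cells raise when amino acids are scarce, was at 33.9 and 24.9 FPKM with dox and 56.1 and 47.7 with vehicle, and fell by 0.81 (limma adjusted p = 0.0117). Slc38a7 was higher in clone 2 than in clone 1 in both groups, as Slc38a4 was but by less, at 23.4 against 19.8 FPKM with dox and 21.4 against 17.0 with vehicle. Slc38a10 rose by 0.57 (limma adjusted p = 0.00441). Of 6 tested relatives, 1 rose, 1 fell and 4 did not pass, near the 31.9% of all genes that passed.

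Sfmbt2 encodes a Polycomb-type protein with malignant brain tumor repeats that the placenta needs, and lies on chromosome 2 from 10370510 to 10595253 (plus strand, GRCm38). Sfmbt2 was at 1.58 and 1.81 FPKM with dox, 2.89 and 2.85 with vehicle, and 1.38 to 1.81 in the wild-type line. The vehicle libraries were above all others, and its level fell by 0.52 with dox (log2, SE 0.111, limma adjusted p = 0.0168). Without vehicle clone 1 the limma adjusted p was 0.0725. A large cluster of microRNA hairpins lies in an intron of Sfmbt2. Of 119 hairpins annotated there, 40 have a row in the table and all 40 were listed at 0 in all 8 libraries. Since libraries of polyadenylated RNA do not measure mature microRNAs, these zeros do not show whether the cluster is active. Among 11 genes of Sfmbt and PhoRC partners, which are Polycomb proteins and their DNA-binding partners, 2 rose, 6 fell and 3 did not pass (median -0.32 on the log2 scale, beside -0.01 for all genes). The shares over all genes tested were 17.1% and 14.8% for genes that rose and fell. Yy1, which encodes the DNA-binding subunit, was at 27.9 and 24.9 FPKM with dox and 35.3 and 37.7 with vehicle, and fell by 0.45 (limma adjusted p = 0.0131). The paralogue Sfmbt1 was at 2.05 and 2.16 FPKM with dox and 2.66 and 2.76 with vehicle (-0.26, limma adjusted p = 0.105).

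Zrsr1 is a retrogene inside Commd1 on chromosome 11, from 22972005 to 22976496 (plus strand, GRCm38). With dox and vehicle its log2 difference was 0.08 (SE 0.0988, limma adjusted p = 0.545), although both dox libraries were above both vehicle libraries. Its exons overlap annotated exons of Commd1 on the other strand, and Commd1, which encodes a copper metabolism protein, was at 71.9 and 76.1 FPKM with dox and 66.2 and 66.8 with vehicle. As the counting strand is not known, part of the low Zrsr1 value may come from Commd1 fragments, which was not tested. Of 9 splicing factor genes read beside Zrsr1, none rose, 5 fell and 4 did not pass (median -0.26 on the log2 scale), where 14.8% of all genes fell. U2af1, the paralogue whose product recognises the end of introns, fell by 0.27 (limma adjusted p = 0.0299), and Zrsr2, the X-linked paralogue of Zrsr1, was at 14.2 and 15.3 FPKM with dox and 17.1 and 16.3 with vehicle (-0.17, limma adjusted p = 0.163).

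Zdbf2 encodes a zinc finger protein, and in mouse its imprinted activation in the early embryo affects growth after birth. It lies on chromosome 1 from 63273265 to 63314576 (plus strand, GRCm38). Zdbf2 was at 10.25 and 7.28 FPKM with dox, 11.3 and 10.3 with vehicle, 13.2, 15.4 and 10.4 with siDnmt3a, siDnmt3b and the double siRNA, and 14.9 with siControl. The dox libraries were just below the vehicle libraries without overlap (log2 difference -0.29, SE 0.153, limma adjusted p = 0.189). Within clones the difference was -0.12 in clone 1 and -0.45 in clone 2, and with the clone as a block the limma adjusted p was 0.0280. Without dox clone 1 it was 0.0139. Zdbf2 and Plagl1 hold the only upstream windows among those of the 9 genes with the letters TGCCGC, the core of the motif bound by ZFP57 when methylated, on either strand (GCGGCA on the other). RefSeq gave 15 windows of 250 bases for 7 of the 9 genes, and 2 windows held the motif, against 8.7% of all 32851 windows. Both are shown on their gene's strand (GRCm38.p6) with CpGs in capitals, that of Zdbf2 lying before a RefSeq start far upstream of the gene's main body.
Zdbf2, chr1:63200108-63200357, plus strand: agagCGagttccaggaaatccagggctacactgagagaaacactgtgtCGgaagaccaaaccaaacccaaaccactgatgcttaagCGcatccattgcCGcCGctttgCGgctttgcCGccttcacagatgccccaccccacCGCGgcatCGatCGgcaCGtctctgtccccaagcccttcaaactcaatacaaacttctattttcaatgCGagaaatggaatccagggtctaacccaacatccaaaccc
Plagl1, chr10:13090582-13090831, plus strand: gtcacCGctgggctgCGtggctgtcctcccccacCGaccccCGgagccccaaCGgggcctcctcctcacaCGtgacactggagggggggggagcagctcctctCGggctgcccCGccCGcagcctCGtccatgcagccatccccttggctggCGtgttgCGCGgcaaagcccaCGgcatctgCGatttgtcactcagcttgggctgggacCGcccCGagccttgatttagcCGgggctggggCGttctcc
The Zdbf2 window holds 13 CpGs and 3 matches of the motif, and the Plagl1 window 19 CpGs and 1 match. Plagl1 lies on chromosome 10 from 13060504 to 13131694 (plus strand).

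Factors that set or keep imprints were lower with dox as a list. Of 21 tested, none rose, 13 fell and 8 did not pass, with a median of -0.39 on the log2 scale beside -0.01 for all genes. Among all genes tested, 17.1% rose and 14.8% fell. Trim28, the cofactor of ZFP57, was at 402 and 354 FPKM with dox and 665 and 598 with vehicle, and fell by 0.74 (limma adjusted p = 0.00266). Dnmt3b was at 21.5 and 20.8 FPKM with dox and 68.8 and 55.1 with vehicle, and fell by 1.498 (limma adjusted p = 0.000528). Hells, a chromatin remodeller needed for methylation, fell by 0.82 (limma adjusted p = 0.00250). Zfp57 itself was at 216 and 195 FPKM with dox and 242 and 219 with vehicle (-0.16, limma adjusted p = 0.184). DNA methylation was not measured here, and any part of these factors in the values of the 9 genes was not tested.

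Peg13 is a non-coding RNA in an intron of Trappc9, on the same strand, on chromosome 15 from 72805600 to 72810324 (minus strand, GRCm38). In mouse brain it is transcribed from the paternal copy, and the nearby potassium channel gene Kcnk9 from the maternal copy. Peg13 was at 1.87 and 1.60 FPKM with dox, 1.11 and 0.937 with vehicle, and 1.84 to 2.22 in the wild-type line. The dox libraries were above the vehicle libraries, and its level rose by 0.43 with dox (log2, SE 0.125, limma adjusted p = 0.0409). This call was lost without any one of the 4 libraries, at limma adjusted p between 0.0783 and 0.144. Trappc9, whose product serves in vesicle traffic, was at 12.98 and 15.2 FPKM with dox and 10.97 and 12.3 with vehicle (0.25, limma adjusted p = 0.122), and its unspliced RNA would also cover Peg13. Kcnk9 was listed at 0 in 7 libraries and at 0.0354 FPKM with siDnmt3b.

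For this list and the marker lists below, the shares over all genes tested were 17.1% that rose and 14.8% that fell. Outside the 9 genes, 35 of 53 other imprinted genes in the table were tested, of which 11 rose, 11 fell and 13 did not pass (median -0.13 on the log2 scale). Without vehicle clone 1, 12 of them passed in place of 22. Dcn and Igf2 rose by 2.98 and 1.86 (limma adjusted p = 5.67e-05 and 0.000183), and Peg10 and Nnat fell by 1.35 and 0.99 (limma adjusted p = 0.00211 and 0.00396). Dcn encodes a matrix proteoglycan. Of 24 tested markers of feeder fibroblasts, 22 rose, 1 fell and 1 did not pass, with a median of 1.47 on the log2 scale, and the sum of all 25 was at 2972 and 3098 FPKM with dox against 983 and 1157 with vehicle. None of the 25 was at 0 throughout. Markers of trophoblast (4 of 5 tested), primitive endoderm (3 of 5) and macrophages (5 of 9) also rose, with none falling, while 2 of 4 tested neural markers fell. The trophoblast, primitive endoderm and neural lists hold 15, 11 and 8 genes, and those not tested averaged under 1 FPKM in the knock-in line. The trophoblast markers that rose were Krt8, Krt18, Tfap2c and Eomes, and those of primitive endoderm were Sparc, Dab2 and Pdgfra. Of 11 pluripotency markers, 3 rose, 2 fell and 6 did not pass. The part of these cell types in the calls for Grb10, Gnas, Peg13 and Sfmbt2 was not tested.

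Sites for miR-203 were sought because dox switches this microRNA on, although the cells were collected 2 weeks after withdrawal. The mature strand (RefSeq, GRCm38.p6, chr12:112130927-112130948, plus strand) is shown with its seed, bases 2 to 8, in capitals.
mmu-miR-203-3p: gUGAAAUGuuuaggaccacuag
The site that pairs with the seed, CATTTCA, was searched on the transcript strand of the longest annotated 3′ UTR of each gene (GENCODE M21, GRCm38). It occurs in 4 of the 8 genes with such a UTR, at 2 places each in Grb10, Slc38a4, Zdbf2 and Impact, and not in Plagl1, Sfmbt2, Zrsr1 or Gnas. A site was present in 16.7% of 10480 genes tested, and 2 or more in 3.4%. These shares take no account of UTR length, on which the number of matches depends, so no excess is read from them. The UTRs with sites have 2955 (Grb10), 2170 (Slc38a4), 4631 (Zdbf2) and 2392 (Impact) bases, and those without have 1444 (Gnas) to 4683 (Sfmbt2). The sites of 3 genes are shown with their flanks, the site in capitals.
Grb10, chr11:11932472-11932500, minus strand: gtaccctcagtCATTTCActtctcccaca
Grb10, chr11:11931540-11931568, minus strand: cagataacagaCATTTCAgttttaccgtg
Slc38a4, chr15:96996425-96996453, minus strand: atagagtacttCATTTCAatactcaagga
Slc38a4, chr15:96995516-96995544, minus strand: tgtatattttaCATTTCAgtaaaaagcca
Zdbf2, chr1:63310827-63310855, plus strand: gaaaaacttgaCATTTCAgaaaaattaag
Zdbf2, chr1:63312108-63312136, plus strand: tacaaccatatCATTTCAttaatcttgtc
Only the first Slc38a4 site is followed by an A. With dox, Grb10 rose, while Slc38a4, Zdbf2 and Impact did not pass. Over all genes tested, the median difference was -0.035 on the log2 scale with a site and 0.002 without.

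In the wild-type line the siRNA libraries were compared with siControl without a test, as there is 1 library per group, and all 3 comparisons share the siControl library. None of the 9 genes reached 2-fold in any of them, against 0.153%, 0.111% and 0.239% of all genes with siDnmt3a, siDnmt3b and the double siRNA. Neither target reached 2-fold in these libraries. Dnmt3a was at 59.8 FPKM with siDnmt3a and 69.5 with the double siRNA, against 75.1 with siControl. Dnmt3b was at 128 with siDnmt3b and 135 with the double siRNA, against 146 with siControl. With siDnmt3a, 7 of the 9 genes were lower than siControl (51.7% of all genes), with differences from -0.16 to 0.02 on the log2 scale. With siDnmt3b, 6 of 9 were lower (51.3% of all genes), from -0.12 to 0.05. With the double siRNA all 9 were lower (48.4% of all genes), from -0.47 to -0.06, with a median of -0.18 beside 0.009 for all genes. For scale, the SD over all genes was 0.159, 0.134 and 0.246, and clones 1 and 2 of the knock-in line differed with an SD of 0.208 with dox and 0.198 with vehicle.

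The differences of the double siRNA library followed the composition of the transcripts over all genes, with a Spearman's rho of 0.513 with GC content and -0.514 with length across genes, which are not independent. The 9 transcripts are long, all longer than 63.0% of expressed genes or more, and Zdbf2, at 12629 bases and 42.3% GC, is longer than 99.3% of them. After a fit on GC content and length, 6, 7 and 7 of the 9 genes were lower with siDnmt3a, siDnmt3b and the double siRNA (50.1%, 44.8% and 46.4% of all genes), with medians of -0.04, -0.03 and -0.07.

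Zdbf2 had the largest single difference as deposited. It was at 10.4 FPKM with the double siRNA against 14.9 with siControl, which is -29.9%, and 2.65% of genes were lower by more. After GC content and length its difference was -0.13 instead of -0.47 on the log2 scale. With siDnmt3b it was at 15.4 FPKM, above siControl. Sfmbt2 was at 1.38 FPKM with the double siRNA against 1.81 (-24.1%), and at 1.74 and 1.73 with siDnmt3a and siDnmt3b. Grb10 was at 84.2 FPKM with the double siRNA and 93.8 with siControl (-10.2%), and Slc38a4 at 37.9 against 41.4 (-8.47%). After GC content and length, the log2 difference was -0.05 for Sfmbt2 (-0.24 before), -0.07 for Grb10 (-0.15 before) and 0.03 for Slc38a4 (-0.12 before). Not all differences shrank: that of Gnas was -0.10 (-0.06 before). Peg13, at -0.15 (-0.18 before), then had the largest difference of the 9 genes with the double siRNA. Before that fit, the highly expressed Gnas, whose transcript is richer in GC than 87.9% of genes, stayed within 4.95% of siControl in all 3 libraries. Markers of feeder fibroblasts were also lower than siControl in all 3 libraries, with medians of -0.54, -0.60 and -0.71 on the log2 scale. Their part in the differences of the 9 genes was not tested.

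**Figure D4:**
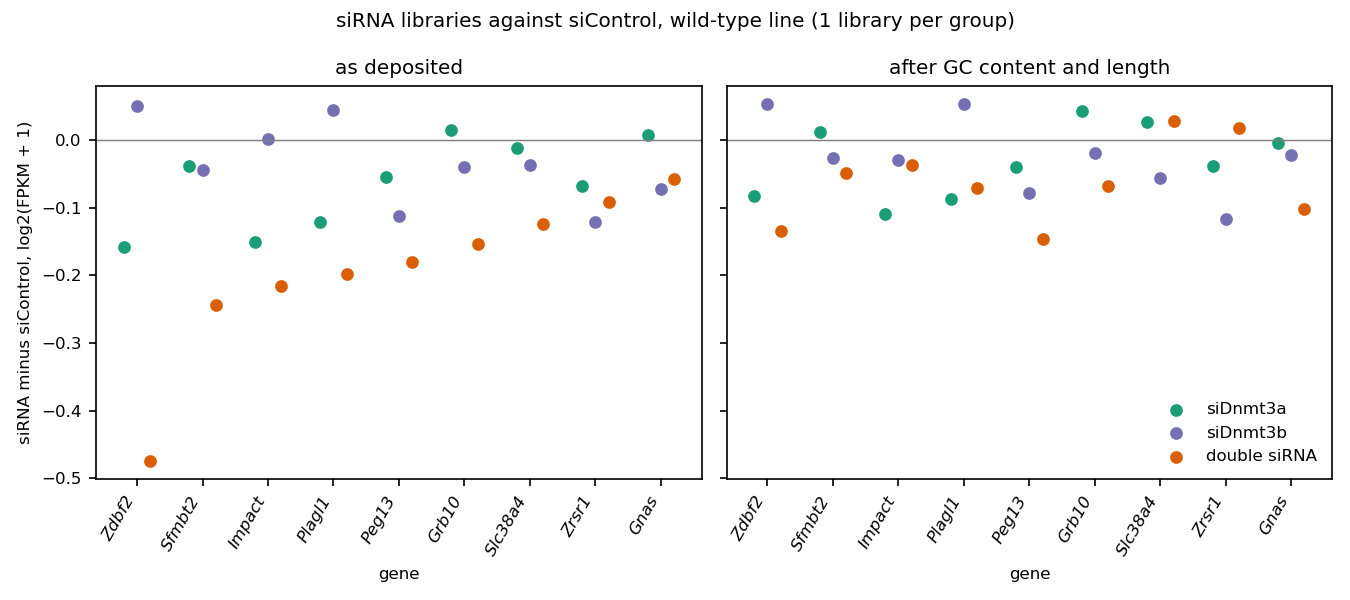
Difference from siControl on the log2(FPKM + 1) scale (y axis) for each of the 9 genes (x axis) with siDnmt3a, with siDnmt3b and with both siRNAs (1 point per library, no replicates), as deposited (left) and after a fit on GC content and length (right). Zdbf2 with the double siRNA stands at -0.47 on the left and at -0.13 on the right, where Peg13 with the double siRNA is lowest, at -0.15.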

How the data were processed

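Values are the FPKM of the authors' deposited table, which has 1 column per library and no counts. The submitters' processing notes name Cuffnorm, Cufflinks 2.2.1, SAMtools 0.1.19, TopHat2 2.0.10, Bowtie 1.0.0 and FastQC, with GRCm38 and mm10. Per the labels, libraries were strand-specific and of polyadenylated RNA. Not given in the sources used here are the strand setting, the annotation release, the library scaling and the version of Cuffnorm. Because FPKM is relative to the library, abundant genes that rise lower the others. Depth in fragments is unknown, so no counting intervals were made. Steps in genes under 0.3 FPKM gave relative depths of 92.7% to 100.0% of siControl, a rough estimate.

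Groups were taken from the labels. Dox and vehicle (2 libraries each) were tested by limma (version 3.58.1, R 4.3.3; lmFit and eBayes, trend on) on log2(FPKM + 1), two-sided, over genes averaging 1 FPKM or more, with Benjamini-Hochberg adjustment over 11927 genes and a threshold of 0.05. This scale understates changes of low genes. siRNA libraries were set against siControl as log2 differences over genes averaging 1 FPKM or more in the pair, where a called gene is 2-fold or more. The scripts were tested on simulated data. Clone numbers in the labels were taken to pair dox with vehicle libraries: differences between clones in the 2 groups correlated across genes (Pearson r = 0.441 over 11927 genes, which are not independent). Alternatives were other pseudocounts, filters and scaling, the clone as a block, eBayes without the trend, leaving out each library, and, added after seeing the data, a fit on GC content and length (GENCODE M21, 90.8% of genes matched).

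The 9 genes, 2 subsets of them and 16 other lists were chosen with earlier results of these data known. Of 319 entries in all, synonyms of the same row counted once, 317 were matched to the table, 6 by an older symbol. Genes named from a list are up to 4 with the largest dox difference, or up to 6 that passed, plus paralogues and neighbours of the 9.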

Additional observations from a re-analysis of the deposited data

How the results depend on the processing

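Genes called with dox numbered 3802, against 2498 with no filter on low values, 6242 with the clone as a replicate block, and 1638 (without vehicle clone 1), 2256 (without dox clone 2) to 4057 when each library was left out. Of the 9 genes, 4 were called, against 2 at a minimum of 5 FPKM, which fewer of them reach, 7 with the block, and 2 (without vehicle clone 1) to 4 without a library. The other imprinted genes called numbered 22, against 14 with no filter, 14 at 5 FPKM, and 12 to 22 without a library. With the block, the log2 differences of Plagl1 (0.28), Impact (-0.24) and Zdbf2 (-0.29) passed, at limma adjusted p = 0.0351, 0.00981 and 0.0280, and no call was lost. Peg13 (0.43) missed the threshold with no filter (limma adjusted p = 0.0666) and lay between 0.36 and 0.50 without a library, never passing. Leaving out a library gave Sfmbt2 -0.59 to -0.46 (not passing without vehicle clone 1), Zdbf2 -0.51 to -0.06 (passing without dox clone 1, limma adjusted p = 0.0139), Impact -0.49 to 0.01 and Slc38a4 -0.60 to 0.46, positive at 0.46 without dox clone 1 and 0.41 without vehicle clone 2. A group left with 1 library was assumed to vary like the other. Genes at 2-fold with siDnmt3a, siDnmt3b and the double siRNA numbered 18, 13 and 28, against 45, 31 and 70 at a pseudocount of 0.1, 4, 2 and 6 at a pseudocount of 5, and 7, 5 and 15 at 5 FPKM, and 21 with siDnmt3b with no filter. At 5 FPKM, 3, 3 and 5 of the genes were lower. Zdbf2 with the double siRNA was at -0.13 after GC content and length. Grb10 and Gnas rose in every alternative run. The causes of these changes were not tested. No depth in fragments is known, so the precision of Peg13 and Sfmbt2, at 0.937 to 2.89 FPKM, cannot be given.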

Other observations

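For each of the 9 genes, the genes whose log2(FPKM + 1) was most like it over the 8 libraries were found by Pearson's r, given without a p because the libraries share lines and treatments. Ssbp3 and Atp2a2 were most like Grb10 (r = 1.0 and 0.999), and Hipk2 and Nkain1 most like Slc38a4 (r = 0.993 and 0.99). Arfgef2 was most like Plagl1 (r = 0.996), Slc44a1 most like Zrsr1 (r = 0.998), Zc4h2 most like Zdbf2 (r = 0.991) and Gpr153 most like Gnas (r = 0.996). The nearest genes of Sfmbt2, Peg13 and Impact were Rbmx (r = 0.988), Arhgef25 (r = 0.987) and Msh6 (r = 0.967). Among the 9 genes themselves, Grb10 and Slc38a4 had r = 0.95 with each other, Plagl1 and Zrsr1 also r = 0.95, and Plagl1 and Slc38a4 r = -0.96. Each of these 4 genes separated the lines without overlap.

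At the locus of Impact, the neighbour Osbpl1a, which encodes a lipid-binding protein, was at 14.2 and 14.5 FPKM with dox and 14.4 and 13.7 with vehicle. Next to Plagl1, Phactr2 and Fuca2 rose by 0.58 and 0.43 on the log2 scale (limma adjusted p = 0.0177 and 0.0230). Next to Gnas, Ctsz, which encodes a lysosomal protease, was at 147 and 167 FPKM with dox and 92.1 and 99.4 with vehicle, and rose by 0.71 (limma adjusted p = 0.00289). Of 21 tested neighbours of the 9 genes, 4 rose, 4 fell and 13 did not pass, beside 31.9% of all genes that passed.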
